A study of Homo sapiens with 12 samples.

Results

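The integrin and laminin chains were the 38 genes, of 61806 in the deposited table, whose symbols name an integrin alpha chain (18 genes), an integrin beta chain (8), or a laminin alpha (5), beta (4) or gamma (3) chain. They were chosen by symbol alone and read in all 12 libraries.

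Integrins are cell-surface receptors in which 1 alpha chain pairs with 1 beta chain, and they tie the cell to proteins of the extracellular matrix and pass signals in both directions across the membrane. Laminins are secreted trimers of 1 alpha, 1 beta and 1 gamma chain that form the sheet of the basement membrane under epithelia, including the thyroid follicle. Laminin-332, which holds LAMA3 and LAMB3, is an adhesion ligand of epithelial cells that is bound by the integrins alpha3beta1 and alpha6beta4.

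RNA was sequenced from TPC-1 and K1, established lines of human papillary thyroid cancer whose genotype the labels give as WT. Each line received either a negative control siRNA or an siRNA against TRIM35, a ubiquitin ligase of the tripartite motif family, and was harvested 24 h later. There were 3 libraries in each of the 4 groups (TPC-1 control, TPC-1 siRNA, K1 control and K1 siRNA). The sequence of the siRNAs was not used here. No label says that the libraries of a group were separate cultures, so p-values reflect only library-to-library spread, possibly technical, and a difference between lines compares 1 line with 1 other. The title of the third TPC-1 control library reads TPC-3, but its cell line label and its column header read TPC-1, the group used here.

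TRIM35 itself read 2.86, 2.91 and 3.06 FPKM (fragments per kilobase of exon, scaled to library depth) in the TPC-1 control libraries and 2.34, 2.56 and 2.58 in the TPC-1 siRNA libraries, 0.848 times the control level (log2 fold change -0.24, SE 0.16, adjusted p = 1 by edgeR's quasi-likelihood test). In K1 it read 1.51, 1.85 and 1.47 FPKM under the control siRNA and 1.20, 1.49 and 1.53 under the TRIM35 siRNA, 0.879 times the control level (log2 fold change -0.19, SE 0.17, adjusted p = 1). The TPC-1 groups did not overlap and the K1 groups did. An exact two-sided permutation test within each line gave p = 0.1 in TPC-1, the smallest p that 3 against 3 libraries allow, and p = 0.5 in K1. Neither difference passed the threshold. TRIM35 also differed between the lines, with K1 control at 0.514 times TPC-1 control (log2 fold change -0.96, SE 0.17, adjusted p = 9.46e-05).

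The libraries held 16705044 to 22928861 counts over genes, of which the 38 chains took 0.382% to 0.502% in TPC-1 and 0.512% to 0.633% in K1. Genes with any count numbered 22526 to 24335 in the TPC-1 libraries and 25015 to 28045 in the K1 libraries. More genes were thus detected in every K1 library, and the part of this in the scarce chains was not tested. Thyroid markers were uneven. PAX8 (17.8 to 20.7 FPKM in TPC-1, 95.5 to 129 in K1) and FOXE1 (1.29 to 1.96 and 11.8 to 15.1) were present, whereas TG, TSHR, SLC5A5 and NKX2-1 stayed at or under 0.19 FPKM in all 12 libraries. CDH1, the epithelial cadherin, reached 0.02 FPKM and EPCAM 0.62 FPKM, while KRT18 stood between 24.7 and 44.6 FPKM in both lines. The other keratins of the epithelial list were KRT8 (1.72 to 2.08 FPKM in TPC-1, 23.0 to 31.6 in K1), KRT19 (0 to 0.09 and 1.40 to 2.99) and KRT7 (0.74 to 1.19 and 0.49 to 1.01), and the 6 genes of the list summed to 38.2 to 47.7 FPKM in TPC-1 and 50.3 to 77.6 in K1. Fewer cells of a kind and less RNA per cell cannot be told apart in bulk RNA.

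The chains differed widely between the lines. Of the 38, 30 passed the filter on low counts, and 23 of these 30 differed between the control libraries of K1 and TPC-1, 19 higher and 4 lower in K1 (adjusted p under 0.05, edgeR's quasi-likelihood test with Benjamini-Hochberg adjustment over 17447 genes). The lines also differed over most of the transcriptome: 67.9% of all genes tested passed the same threshold, 35.8% higher and 32.1% lower in K1. The share of chains called was close to this background in sum and leaned further to the higher side, with a median log2 fold change of 0.74 over the 30 chains against 0.06 over all genes tested. Among chains with a mean of at least 5 FPKM in some group, 16 in number, 10 were higher in K1, 1 was lower (ITGA6) and 5 did not pass (ITGAV, ITGB1, ITGB5, LAMB3 and LAMC1); their median was 0.50, against -0.24 over the 7469 genes that met the same level. Chains that passed the filter only because 1 line expressed them had to differ. ITGA4, ITGAX, ITGA7, ITGA2B, ITGB6, ITGB7, LAMA1 and LAMA4 had at most 12 counts in any TPC-1 library, and all were called higher in K1. The lean to the higher side and the median of 0.74 therefore follow in part from the filter. These counts describe the tested chains and not all 38. The level of 5 FPKM acts in the same way. ITGA1, ITGA2, ITGB8 and LAMA3 reached it in K1 alone, so the 10 higher chains and the median of 0.50 follow in part from that rule.

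The comparison of the lines in the TRIM35 siRNA libraries used other group means than the control comparison. Both shared the same filter and the same estimate of spread from all 12 libraries, so they were not independent tests. In the siRNA libraries 22 chains were called between the lines, 19 higher and 3 lower in K1. The background there was 68.3% of genes called, 35.9% higher and 32.4% lower. The 19 higher chains were the same in both, as were ITGA6, ITGAE and LAMA5 among the lower ones. LAMA2 was the 1 chain called in the control libraries alone, at -1.07 (SE 0.28, adjusted p = 0.00357) there and -0.53 (SE 0.29, adjusted p = 0.115) in the siRNA libraries; without the second TPC-1 siRNA library the latter became -0.74 (adjusted p = 0.041). Over the 16 more abundant chains the log2 difference between lines moved by at most 0.32 from the control to the siRNA libraries.

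**Figure D1:**
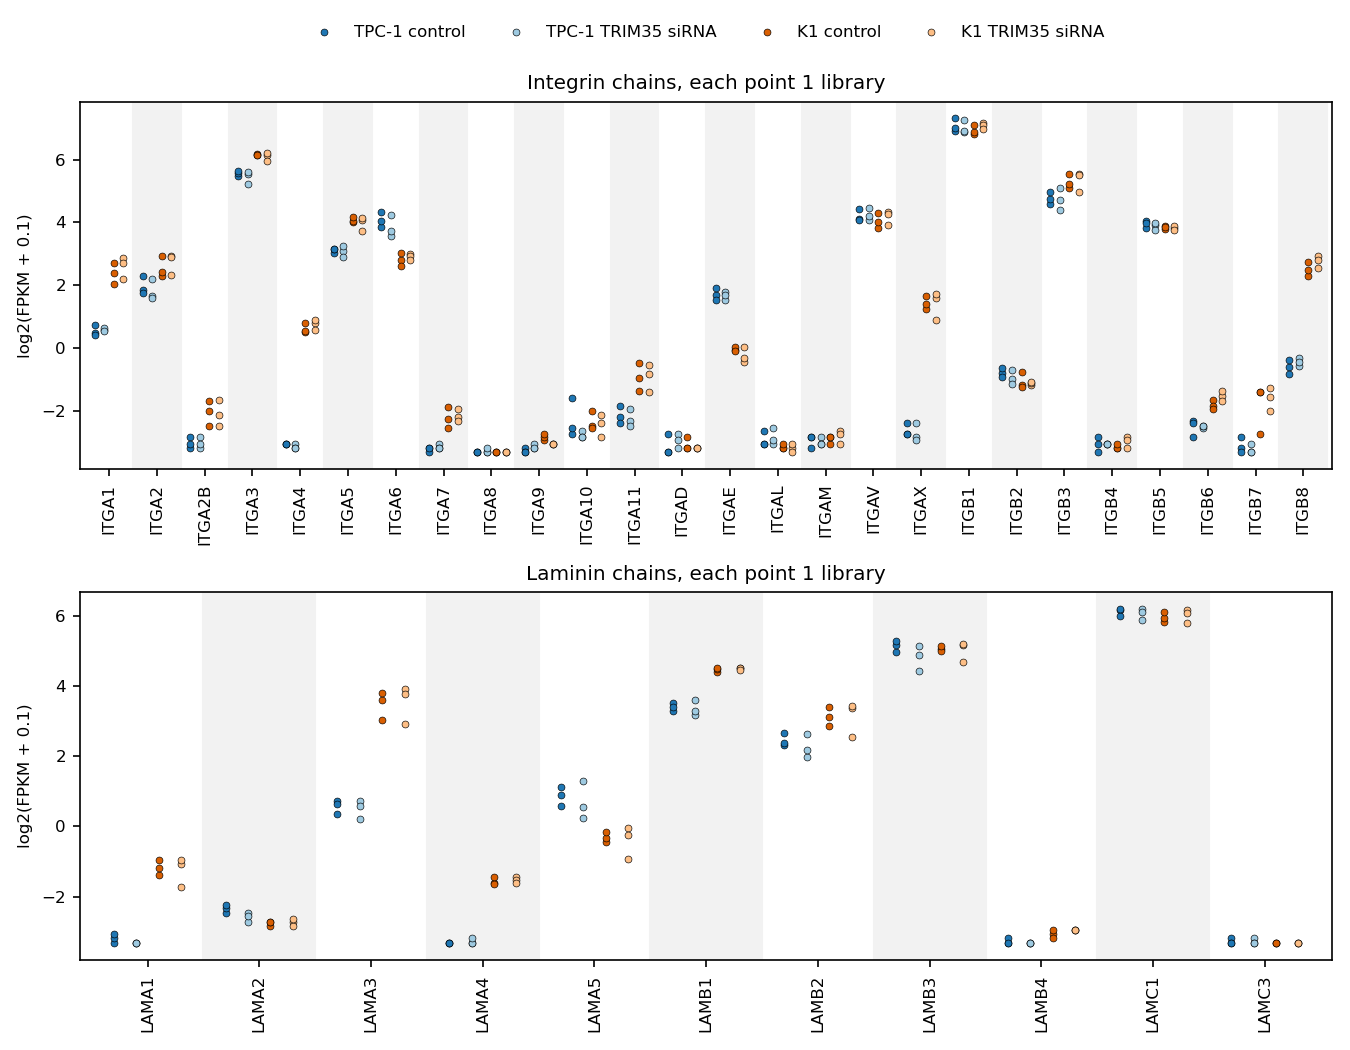
Level of 37 of the 38 chains in each of the 12 libraries, as log2 of FPKM plus 0.1 on the vertical axis, with integrins above and laminins below and 1 point per library coloured by group. ITGB1 stands highest among integrins at 114 to 160 FPKM, and LAMA3 and ITGB8 show the K1 points well above the TPC-1 points while siRNA and control points of a line lie together.

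ITGA3 was the most abundant alpha chain in both lines. It encodes the alpha3 chain, which with beta1 makes a receptor for laminin-332 and laminin-511. ITGA3 read 44.7, 47.97 and 49.6 FPKM in the TPC-1 control libraries, 46.5, 36.9 and 48.9 in the TPC-1 siRNA libraries, 72.2, 70.6 and 71.1 in the K1 control libraries and 71.6, 73.7 and 61.7 in the K1 siRNA libraries. Every K1 library stood above every TPC-1 library, and the K1 excess was 0.49 (SE 0.13, adjusted p = 0.00271) on the log2 scale in the control libraries, a 1.41-fold level, and 0.55 (SE 0.13, adjusted p = 0.00117) in the siRNA libraries. Fold changes carry the TMM scaling of edgeR, a correction for library composition, and FPKM values do not, so ratios of the printed FPKM values differ slightly from them.

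ITGA6, the other main laminin-binding alpha chain, went the opposite way. It read 14.4, 16.5 and 20.1 FPKM in the TPC-1 control libraries, 11.8, 13.3 and 18.6 in the TPC-1 siRNA libraries, 6.88, 6.08 and 8.09 in the K1 control libraries and 7.92, 7.56 and 6.91 in the K1 siRNA libraries. All K1 values lay under the lowest TPC-1 value, with a log2 fold change of -1.38 (SE 0.17, adjusted p = 3.96e-06) in the control libraries and -1.06 (SE 0.17, adjusted p = 5.65e-05) in the siRNA libraries. ITGA3 thus stood at 2.47 to 3.94 times the FPKM of ITGA6 in the TPC-1 libraries and at 8.79 to 11.6 times in the K1 libraries. The partner that makes the hemidesmosomal receptor with alpha6, ITGB4, was at or under 0.04 FPKM in all 12 libraries, with at most 5 counts in any, and did not pass the filter.

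ITGA5 and ITGAV are receptors of fibronectin and of other proteins with an RGD motif. ITGA5, whose only partner is beta1, read 7.98, 8.76 and 8.76 FPKM in the TPC-1 control libraries, 8.51, 7.31 and 9.51 in the TPC-1 siRNA libraries, 16.2, 16.4 and 18.03 in the K1 control libraries and 16.9, 17.7 and 13.2 in the K1 siRNA libraries. No K1 value reached down to TPC-1, and the level in K1 was 1.85-fold that of TPC-1 in the control libraries (log2 0.89, SE 0.12, adjusted p = 9.7e-06) and 1.76-fold in the siRNA libraries (log2 0.81, SE 0.12, adjusted p = 2.34e-05). ITGAV, which pairs with several beta chains, read 17.1, 16.96 and 21.5 FPKM in the TPC-1 control libraries, 16.95, 18.3 and 21.7 in the TPC-1 siRNA libraries, 13.97, 16.2 and 19.5 in the K1 control libraries and 20.1, 19.02 and 15.2 in the K1 siRNA libraries. The lines overlapped, and neither the control comparison, -0.26 (SE 0.15, adjusted p = 0.125), nor the siRNA comparison, -0.17 (SE 0.15, adjusted p = 0.318), passed. The 95% interval of the control difference ran from -0.58 to 0.05 on the log2 scale.

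The collagen receptor chains ITGA1 and ITGA2 lie beside each other on chromosome 5 (hg38, chr5:52787916-52959209 and chr5:52989340-53094779, 30.1 kb apart). ITGA1 read 1.29, 1.22 and 1.55 FPKM in the TPC-1 control libraries, 1.39, 1.44 and 1.37 in the TPC-1 siRNA libraries, 4.01, 5.12 and 6.40 in the K1 control libraries and 7.24, 6.50 and 4.52 in the K1 siRNA libraries. It was higher in every K1 library, at 3.56-fold in the control libraries (log2 1.83, SE 0.17, adjusted p = 9.71e-08) and 4.05-fold in the siRNA libraries (log2 2.02, SE 0.17, adjusted p = 3.2e-08). ITGA2, its neighbour, read 3.49, 3.27 and 4.76 FPKM in the TPC-1 control libraries, 3.07, 2.90 and 4.46 in the TPC-1 siRNA libraries, 4.83, 5.25 and 7.46 in the K1 control libraries and 7.53, 7.38 and 4.91 in the K1 siRNA libraries. The control groups were separated by a narrow gap, and the log2 difference of 0.50 (SE 0.20, adjusted p = 0.0382) lost its call without the first or the second TPC-1 control library or the third K1 control library, at 0.44, 0.39 and 0.32 (adjusted p = 0.109, 0.152 and 0.196). In the siRNA libraries the difference was 0.82 (SE 0.20, adjusted p = 0.00198). The ratio of ITGA1 to ITGA2 was 0.307 to 0.497 in TPC-1 and 0.830 to 0.975 in K1. PELO lies on the same strand within ITGA1 and held 558 to 1078 counts a library, and how shared reads were assigned between them is not known.

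Among the low-level alpha chains, ITGA4 and ITGAX had the widest gap between the lines. ITGA4, which binds VCAM1 and fibronectin, had 11 counts over the 3 TPC-1 control libraries and 939 over the 3 K1 control libraries, or 0.01 to 0.02 FPKM in TPC-1 and 1.33 to 1.77 FPKM in K1 over all 6 libraries of a line. The fitted level was 68.9-fold in the control libraries (log2 6.11, SE 0.23, adjusted p = 2.99e-12), with a 95% interval of 48.9 to 96.9. The ratio of the summed counts was 75.1, and its exact counting interval of 41.8 to 151 was wider than the fitted one. ITGAX, the alphaX chain known from myeloid cells, was at 0.03 to 0.09 FPKM in TPC-1 and at 1.75 to 3.22 FPKM in K1 (log2 5.28, SE 0.32, adjusted p = 6.65e-10 in the control libraries). ITGAX lies between ITGAM and ITGAD on chromosome 16, 22.2 kb and 10.3 kb from them, and these neighbours reached at most 0.06 and 0.05 FPKM in any library. ITGB2, the beta chain that all 3 of them need, was 0.35 to 0.54 FPKM in TPC-1 and 0.32 to 0.49 in K1, with a log2 difference of -0.42 (SE 0.24, adjusted p = 0.135) that passed only without the first K1 control library (-0.69, adjusted p = 0.030) or without that library and the third K1 siRNA library together (-0.68, adjusted p = 0.024).

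Leukocyte markers were read beside ITGAX. Of 6 markers, none exceeded 1 FPKM in TPC-1 and 1 did in K1, CD14 at 3.71 to 5.31 FPKM. Their summed level was 0.17 to 0.66 FPKM in TPC-1 and 4.40 to 5.87 FPKM in K1. PTPRC, which marks all leukocytes, stayed at or under 0.21 FPKM in K1, CD3E was at 0 in all K1 libraries, and SPI1 and LYZ reached at most 0.26 and 0.35 FPKM there.

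ITGAE, the alphaE chain that pairs with beta7 and binds E-cadherin, was lower in K1. It ran from 2.78 to 3.65 FPKM in TPC-1 and from 0.63 to 0.93 in K1 with no overlap (log2 -1.96, SE 0.17, adjusted p = 5.98e-08 in the control libraries, -2.13, SE 0.17, adjusted p = 2.79e-08 in the siRNA libraries). HASPIN, a mitotic kinase gene, lies within ITGAE on the opposite strand and was lower too, at 142 to 249 counts a library in TPC-1 and 20 to 28 in K1. The strand setting of the counting is not known, and the part of HASPIN in the ITGAE values was not tested.

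The remaining alpha chains were scarce. ITGA11 (0.08 to 0.18 FPKM in TPC-1, 0.28 to 0.62 in K1), ITGA2B (0.01 to 0.04 and 0.08 to 0.22) and ITGA7 (0 to 0.02 and 0.07 to 0.17) were higher in K1 in both comparisons. ITGA7 had 3 counts over the TPC-1 control libraries and 64 over the K1 control libraries, a ratio of 18.8 with an exact counting interval of 6.14 to 93.4. In the siRNA libraries it had 8 and 66 counts, a ratio of 9.01 (4.31 to 21.7). BLOC1S1 on the opposite strand of ITGA7 held up to 370 counts a library. For ITGA2B, known from platelets, the platelet markers PF4 and GP9 were at 0 in all K1 libraries, and GP1BA was 0.06 to 0.18 FPKM in TPC-1 and 0.37 to 0.88 in K1. ITGA10 did not pass (log2 -0.31, SE 0.54, adjusted p = 0.631), and this value turned to 0.60 without the first TPC-1 control library. ITGA8, ITGA9, ITGAD, ITGAL and ITGAM failed the filter with at most 12 counts in any library. ITGA8 had 1 count over all TPC-1 libraries and none in K1, so no fold is given. Without the filter ITGA9 was also called higher in the K1 control libraries (log2 2.89, adjusted p = 0.033).

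ITGB1, the beta chain shared by most laminin, collagen and fibronectin receptors, was the most abundant integrin mRNA. It read 119, 130.1 and 159.6 FPKM in the TPC-1 control libraries, 118, 121 and 154 in the TPC-1 siRNA libraries, 114, 119 and 137 in the K1 control libraries and 142, 138 and 125 in the K1 siRNA libraries. The lines overlapped, the control difference was -0.25 (SE 0.16, adjusted p = 0.169) with an interval of -0.58 to 0.08, and the siRNA difference was -0.05 (SE 0.16, adjusted p = 0.787). This last value, already near 0, turned to 0.06 without the third TPC-1 siRNA library, to 0.05 with library totals in place of TMM and to 0.05 with limma on FPKM.

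ITGB3, which with alphaV binds vitronectin and osteopontin, read 24.03, 26.5 and 31.1 FPKM in the TPC-1 control libraries, 26.2, 20.96 and 34.1 in the TPC-1 siRNA libraries, 34.2, 37.1 and 46.7 in the K1 control libraries and 46.3, 45.6 and 31.02 in the K1 siRNA libraries. Its control groups did not overlap and its siRNA groups did. The differences between lines of 0.43 (SE 0.18, adjusted p = 0.0406) and 0.49 (SE 0.18, adjusted p = 0.0205) passed narrowly. The control call was lost without the first or second TPC-1 control library (log2 0.35 and 0.41, adjusted p = 0.128 and 0.104) or the second or the third K1 control library (0.48 and 0.32, adjusted p = 0.053 and 0.163). The siRNA call was lost without the first or second TPC-1 siRNA library (0.44 and 0.34, adjusted p = 0.067 and 0.115) or the first or second K1 siRNA library (both 0.43, adjusted p = 0.070 and 0.077).

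ITGB5, another partner of alphaV, was the steadiest of the abundant beta chains. It read 14.2, 16.3 and 15.8 FPKM in the TPC-1 control libraries, 14.9, 13.5 and 15.6 in the TPC-1 siRNA libraries, 14.8, 13.9 and 14.3 in the K1 control libraries and 14.1, 14.9 and 13.4 in the K1 siRNA libraries. Its highest value in a line was 1.21 times its lowest in TPC-1 and 1.11 times in K1, and neither difference between lines passed (log2 -0.20, SE 0.11, adjusted p = 0.115 in the control libraries and -0.15, SE 0.11, adjusted p = 0.25 in the siRNA libraries). ITGB3 stood at 1.56 to 2.19 times the FPKM of ITGB5 in TPC-1 and at 2.32 to 3.29 times in K1.

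ITGB8, whose product joins alphaV in a receptor that activates latent TGF-beta, had the widest gap of the beta chains above 5 FPKM. ITGB8 read 0.56, 0.46 and 0.67 FPKM in the TPC-1 control libraries, 0.70, 0.58 and 0.64 in the TPC-1 siRNA libraries, 4.81, 5.51 and 6.62 in the K1 control libraries and 7.55, 6.94 and 5.74 in the K1 siRNA libraries. The lowest K1 value was several times the highest TPC-1 value, and the fold was 9.33 in the control libraries (log2 3.22, SE 0.15, adjusted p = 4.66e-11) and 9.81 in the siRNA libraries (log2 3.29, SE 0.15, adjusted p = 3.2e-11). Relative to ITGAV in the same library, ITGB8 had a ratio of 0.027 to 0.041 in TPC-1 and of 0.339 to 0.379 in K1.

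ITGB6, the alphaV partner induced in carcinoma and wound epithelium, stayed low at 0.04 to 0.10 FPKM in TPC-1 and 0.16 to 0.29 in K1. Its control difference of 1.18 (SE 0.40, adjusted p = 0.015) lost the call without the second TPC-1 control library (0.87, adjusted p = 0.079), without the first K1 control library (1.00, adjusted p = 0.064) or without that library and the third K1 siRNA library together (1.01, adjusted p = 0.058). The siRNA difference was 1.53 (SE 0.38, adjusted p = 0.00221). ITGB7, the partner of alpha4 and alphaE, was 0 to 0.04 FPKM in TPC-1 and 0.05 to 0.31 in K1, with 4 counts over the TPC-1 control libraries and 54 over the K1 control libraries (a ratio of 11.9, counting interval 4.38 to 45.2), and 2 and 58 counts in the siRNA libraries (31.7, 8.38 to 268). ZNF740 overlaps ITGB7 on the opposite strand and held 443 to 1006 counts a library.

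**Figure D2:**
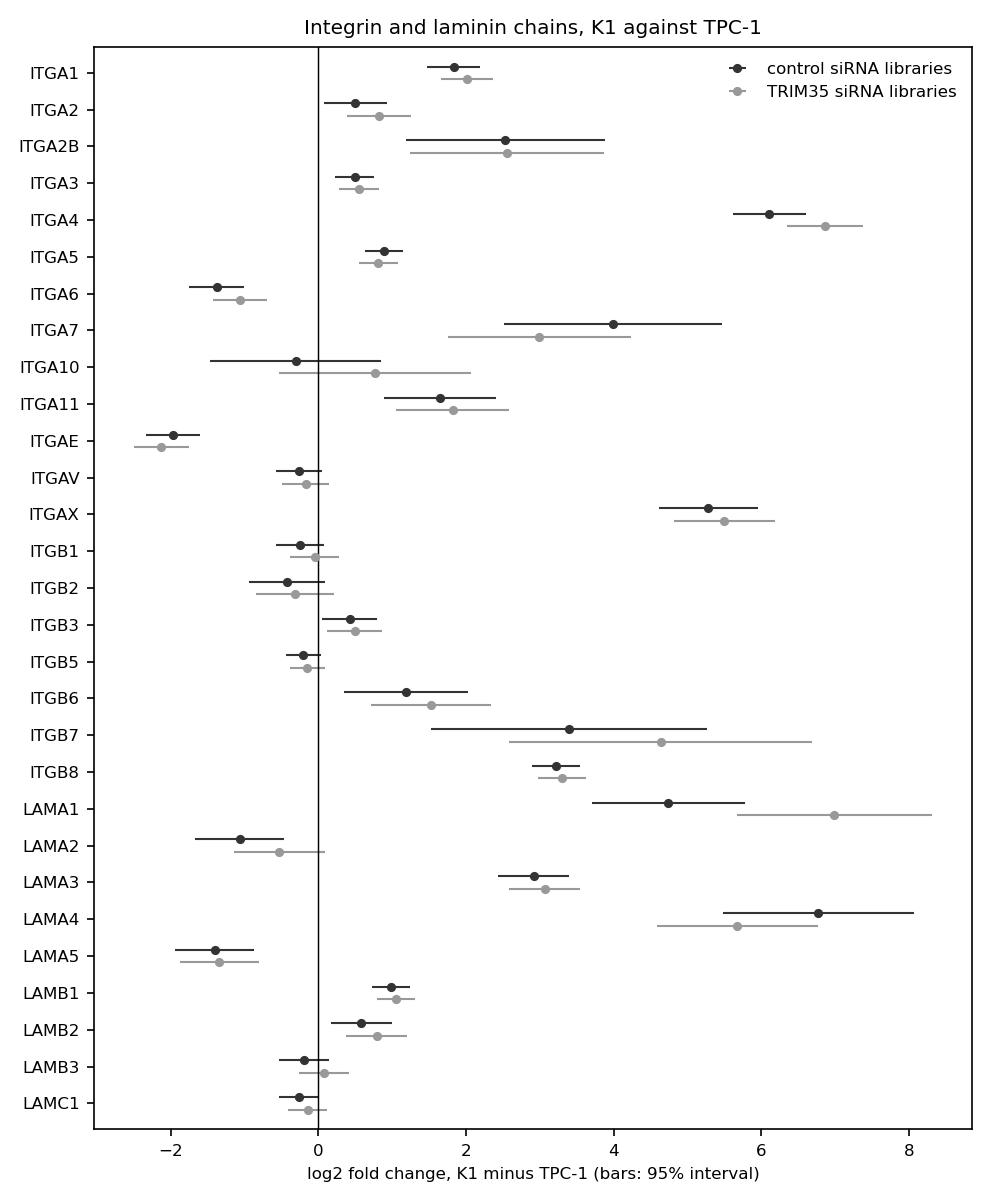
Log2 fold change of K1 against TPC-1 on the horizontal axis for 29 of the 30 chains tested, with 95% intervals, in the control siRNA libraries (dark) and the TRIM35 siRNA libraries (grey). Of the 29, 27 have the same sign in both, and ITGAV, ITGB1, ITGB2, ITGB5, ITGA10, LAMB3 and LAMC1 have intervals that reach 0 in both.

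LAMA3 and LAMA5, the main laminin alpha chains, differed in opposite directions. LAMA3, the alpha chain of laminin-332, read 1.56, 1.17 and 1.46 FPKM in the TPC-1 control libraries, 1.54, 1.05 and 1.41 in the TPC-1 siRNA libraries, 8.16, 11.98 and 13.9 in the K1 control libraries and 14.9, 13.7 and 7.51 in the K1 siRNA libraries. The lowest K1 library exceeded every TPC-1 library several times over, and the fold was 7.54 in the control libraries (log2 2.92, SE 0.23, adjusted p = 1.4e-08) and 8.38 in the siRNA libraries (log2 3.07, SE 0.23, adjusted p = 8.06e-09). K1 libraries varied among themselves by up to 1.99 times for LAMA3. The gene makes a long and a short form from separate starts, and gene-level counts do not separate them. LAMA5, the alpha chain of laminin-511 and laminin-521, stood at 1.08 to 2.37 FPKM in TPC-1 and at 0.43 to 0.87 in K1 with no overlap (log2 -1.40, SE 0.25, adjusted p = 0.000142 in the control libraries, -1.34, SE 0.25, adjusted p = 0.000227 in the siRNA libraries). ADRM1, on the opposite strand and overlapping LAMA5, held 821 to 1073 counts a library in TPC-1 and 409 to 762 in K1. LAMA3 stood at 0.650 to 1.02 times the FPKM of LAMA5 in TPC-1 and at 13.0 to 18.5 times in K1.

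The other alpha chains were at low levels. LAMA1, the alpha chain of the embryonic laminin-111, was 0 to 0.02 FPKM in TPC-1 and 0.20 to 0.41 in K1, with 10 counts over the TPC-1 control libraries and 332 over the K1 control libraries (a ratio of 29.2, counting interval 15.7 to 61.5), and 2 and 300 counts in the siRNA libraries (164, 44.9 to 1358). LAMA4, typical of vessels and mesenchyme, had 1 count over the TPC-1 control libraries and 178 over the K1 control libraries, a ratio of 157 with a counting interval of 27.8 to 6219. In the siRNA libraries LAMA4 had 3 and 168 counts, a ratio of 61.1 (20.6 to 299). The endothelial markers PECAM1, CDH5 and VWF summed to at most 0.14 FPKM in any library. The 7 fibroblast markers summed to 1.71 to 2.46 FPKM in TPC-1 and 1.22 to 1.80 in K1. Among them PDGFRA (0.01 to 0.02 FPKM in TPC-1, 0.32 to 0.49 in K1) and DCN (0 to 0.05 and 0.12 to 0.26) were higher in every K1 library, and PDGFRB (1.43 to 1.99 and 0.29 to 0.47) was lower. The libraries are of cell lines, and a link of these markers with the LAMA4 values was not tested. LAMA2, the alpha chain of muscle laminins, stood at 0.05 to 0.11 FPKM in TPC-1 and 0.04 to 0.06 in K1.

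LAMB3 and LAMB1 were the main beta chains. LAMB3, the beta chain of laminin-332, read 31.3, 35.6 and 39.2 FPKM in the TPC-1 control libraries, 29.4, 21.6 and 35.5 in the TPC-1 siRNA libraries, 32.99, 31.6 and 34.9 in the K1 control libraries and 35.8, 36.4 and 25.8 in the K1 siRNA libraries. It overlapped between the lines and passed in neither comparison, at -0.19 (SE 0.16, adjusted p = 0.296) and 0.08 (SE 0.16, adjusted p = 0.662), whereas its laminin-332 partner LAMA3 was called higher in K1. The siRNA value turned to -0.08 without the second TPC-1 siRNA library. LAMB1, the beta chain of laminin-111, laminin-411 and laminin-511, read 11.4, 9.67 and 10.5 FPKM in the TPC-1 control libraries, 11.99, 8.88 and 9.62 in the TPC-1 siRNA libraries, 21.2, 22.5 and 22.9 in the K1 control libraries and 22.8, 22.7 and 21.7 in the K1 siRNA libraries. All 6 K1 values lay within 21.2 to 22.9 FPKM and above all TPC-1 values, and the fold was 1.97 in the control libraries (log2 0.98, SE 0.12, adjusted p = 3.34e-06) and 2.07 in the siRNA libraries (log2 1.05, SE 0.12, adjusted p = 1.6e-06). DLD overlaps LAMB1 on the opposite strand and held 1280 to 2220 counts a library in TPC-1 and 1436 to 1993 in K1.

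LAMB2, the beta chain of laminin-521, read 6.22, 4.94 and 5.10 FPKM in the TPC-1 control libraries, 6.16, 3.85 and 4.43 in the TPC-1 siRNA libraries, 7.21, 8.57 and 10.4 in the K1 control libraries and 10.4, 10.7 and 5.76 in the K1 siRNA libraries. The control groups were apart and the siRNA groups overlapped at the third K1 siRNA library. The differences were 0.58 (SE 0.19, adjusted p = 0.0146) and 0.79 (SE 0.20, adjusted p = 0.00208), and the control call was lost without the second or the third TPC-1 control library or the third K1 control library (log2 0.52, 0.54 and 0.47, adjusted p = 0.060, 0.056 and 0.065). LAMB4 failed the filter with at most 5 counts in any library, and without the filter it was called higher in the K1 siRNA libraries (13 counts against 0). With the 0 set to a floor of 3 counts for the 3 libraries the ratio was 4.73, and the counting interval began at 3.33.

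LAMC1, the gamma chain of most laminins (chr1:183023420-183145592), read 72.1, 63.8 and 73.4 FPKM in the TPC-1 control libraries, 73.3, 58.8 and 69.6 in the TPC-1 siRNA libraries, 56.6, 61.7 and 68.5 in the K1 control libraries and 72.5, 67.6 and 55.3 in the K1 siRNA libraries. Its lines overlapped and neither difference passed, at -0.26 (SE 0.12, adjusted p = 0.0711) and -0.14 (SE 0.12, adjusted p = 0.321). LAMC3 had at most 1 count in any library.

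Promoter sequence is shown for LAMA3 and LAMB3, the laminin-332 chains with an AP-1 match near a start site, of which LAMA3 was called between the lines and LAMB3 was not. The windows are from RefSeq, build GRCh38.p14, 27 bases each, 5′ to 3′ on the gene's strand, with the letters matching the AP-1 motif TGANTCA in capitals.
LAMB3, chr1:209651425-209651451, minus strand: tcagccactcTGACTCAttcactttgg
LAMA3, chr18:23872885-23872911, plus strand: tggcacaggcTGACTCAtgtgtgaagt
LAMA3, chr18:23872941-23872967, plus strand: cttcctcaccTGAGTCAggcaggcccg
The LAMB3 match lies 67 bases before the innermost of 3 RefSeq start sites of the gene, in no exon and inside 2 GENCODE transcripts of LAMB3, so it is intronic to them. The LAMA3 matches lie 125 and 69 bases before a start site inside the gene, and each window overlaps 1 GENCODE exon. The motif, read on both strands of 300 bases (250 before and 50 after a start), was present in 3 of 33 windows (9.09%) of the 26 chains with a window, those of ITGA5, LAMA3 and LAMB3, and in 7.71% of all 35116 windows. Other motifs were counted independently, so a window can hold several: GGGCGG (Sp1) was in 19 of the 33 windows (57.6%) and 45.0% of all, and GGAATG (TEAD) in 4 (12.1%) and 14.03% of all. A match of letters is a description and not a site of binding, and the share among the chains was near that of all windows for AP-1.

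The make-up of the classes, as the share of a chain in the summed FPKM of its class, also differed between the lines. In the laminin alpha class LAMA3 and LAMA5 were 43.1% ± 0.88 (SD, n = 3) and 53.6% ± 1.94 in TPC-1 control, and 89.2% ± 1.60 and 5.71% ± 0.89 in K1 control. In the laminin beta class LAMB3 led in both lines, at 68.8% ± 4.19 and 51.8% ± 1.73, and LAMB1 was 20.6% ± 2.37 and 34.6% ± 1.19. LAMA3 led in every K1 library, and LAMA5 led over LAMA3 in 5 of 6 TPC-1 libraries.

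The integrin classes kept their leading chain. ITGB1 made up 75.6% ± 1.12 of the beta class in TPC-1 control and 67.3% ± 0.45 in K1 control, ITGB3 15.1% ± 0.14 and 21.4% ± 1.22, and ITGB8 0.31% ± 0.05 and 3.07% ± 0.19. ITGA3 made up 47.4% ± 1.78 and 55.6% ± 3.503 of the alpha class, followed in TPC-1 by ITGAV (18.4% ± 1.22) and ITGA6 (16.9% ± 1.42), whose ranges overlapped, and in K1 by ITGA5 (13.1% ± 0.04) and ITGAV (12.8% ± 1.44), which also overlapped. Summed FPKM of the laminin alpha class was 3.25 ± 0.52 in TPC-1 control and 12.7 ± 3.05 in K1 control, and of the integrin alpha class 100.2 ± 8.40 and 128.6 ± 7.68, without overlap in either class. The integrin beta class summed to 180.0 ± 25.1 and 183 ± 19.7, within the spread of the libraries.

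**Figure D3:**
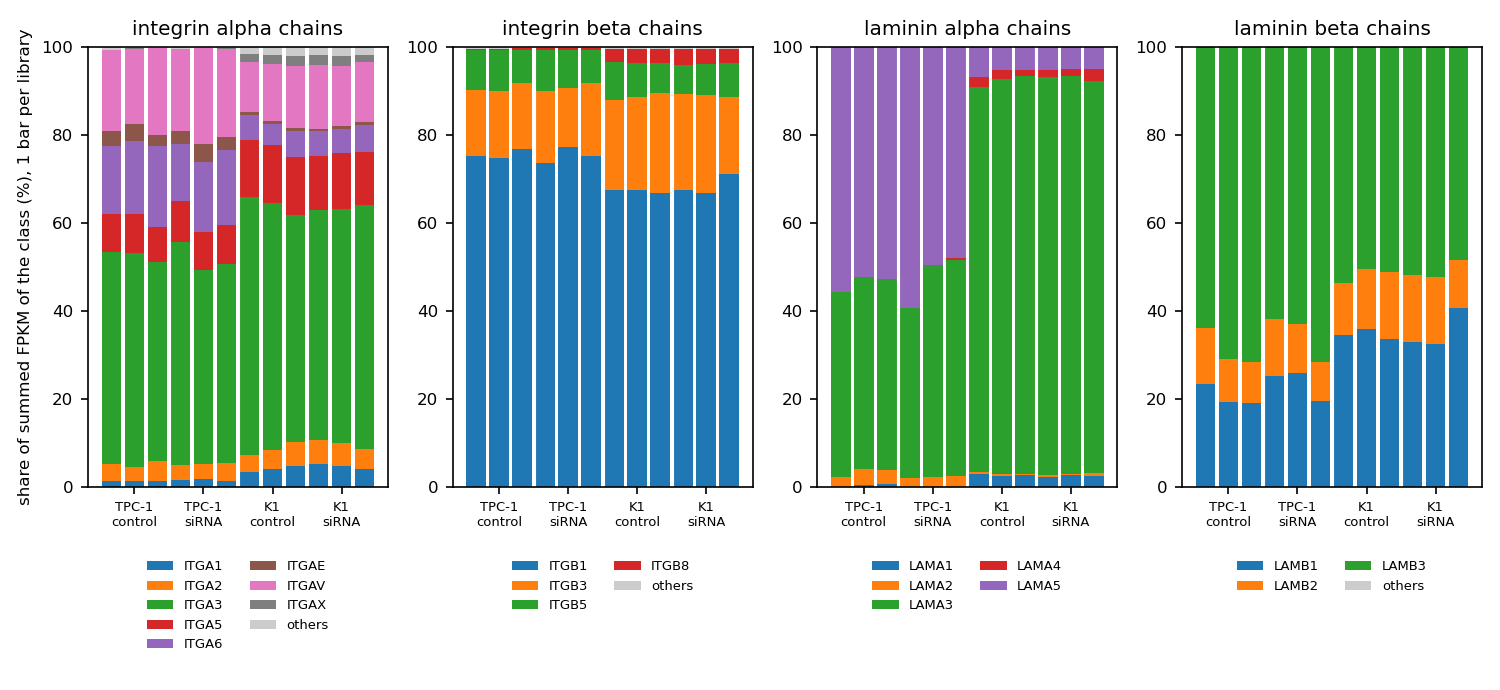
Share (%) of each chain in the summed FPKM of its class, 1 bar per library, for integrin alpha, integrin beta, laminin alpha and laminin beta chains, with chains that stay under 2% in every library joined as others. LAMA3 takes 38.6 to 49.1% of the laminin alpha class in the TPC-1 libraries and 87.4 to 90.5% in the K1 libraries, and the bars of siRNA and control libraries of a line are alike.

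The knockdown comparisons asked whether the chains changed with the TRIM35 siRNA. TRIM35 mRNA itself stood at 0.848 times control in TPC-1 and 0.879 times in K1, and was called in neither line. The comparisons therefore describe the siRNA libraries and not a shown loss of TRIM35. In TPC-1, in K1 and for the difference between their effects, 0 of the 30 tested chains passed the threshold, as did 0 of 17447 genes, a background of 0% in TPC-1, 0% in K1 and 0% for the difference of the knockdown effects between the lines (edgeR's quasi-likelihood test). At an unadjusted p under 0.05 there were 337, 136 and 301 genes and 2, 0 and 0 chains in these 3 comparisons. DESeq2 called 0 chains in each and 2, 0 and 2 genes, and limma called 0 chains and 0 genes in each. The smallest p-values among the chains came from scarce ones in TPC-1: LAMA1 had 10 control and 2 siRNA counts (log2 -2.29, SE 1.04, unadjusted p = 0.0424) and ITGA10 had 40 and 18 (log2 -1.29, SE 0.60, unadjusted p = 0.0465), both with adjusted p = 1 and therefore not called. LAMB3 (-0.30, SE 0.16, unadjusted p = 0.0785) and LAMA2 (-0.50, SE 0.28, unadjusted p = 0.0876) followed. By library, ITGA10 had 26, 6 and 8 control counts and 7, 5 and 6 siRNA counts, so the first control library held most of its control counts.

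In K1 the smallest p-values were those of ITGB8 (log2 0.26, SE 0.14, unadjusted p = 0.0775), ITGA1 (0.23, SE 0.16, unadjusted p = 0.161), ITGB6 (0.45, SE 0.35, unadjusted p = 0.219) and ITGAE (-0.20, SE 0.18, unadjusted p = 0.274) by edgeR's test, each with adjusted p = 1. Over the 30 chains the median log2 effect was -0.09 in TPC-1, with 7 above 0 and 23 below, and 0.05 in K1, with 20 above and 10 below, against 0.00 in TPC-1 and -0.0039 in K1 over all genes. For the 16 chains above 5 FPKM every 95% interval lay within a 2-fold change in both lines, and 14 in TPC-1 and 15 in K1 lay within 1.5-fold. The interval of LAMA3 was -0.53 to 0.39 in TPC-1 and -0.36 to 0.52 in K1, and that of ITGB1 -0.39 to 0.27 and -0.19 to 0.47.

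**Figure D4:**
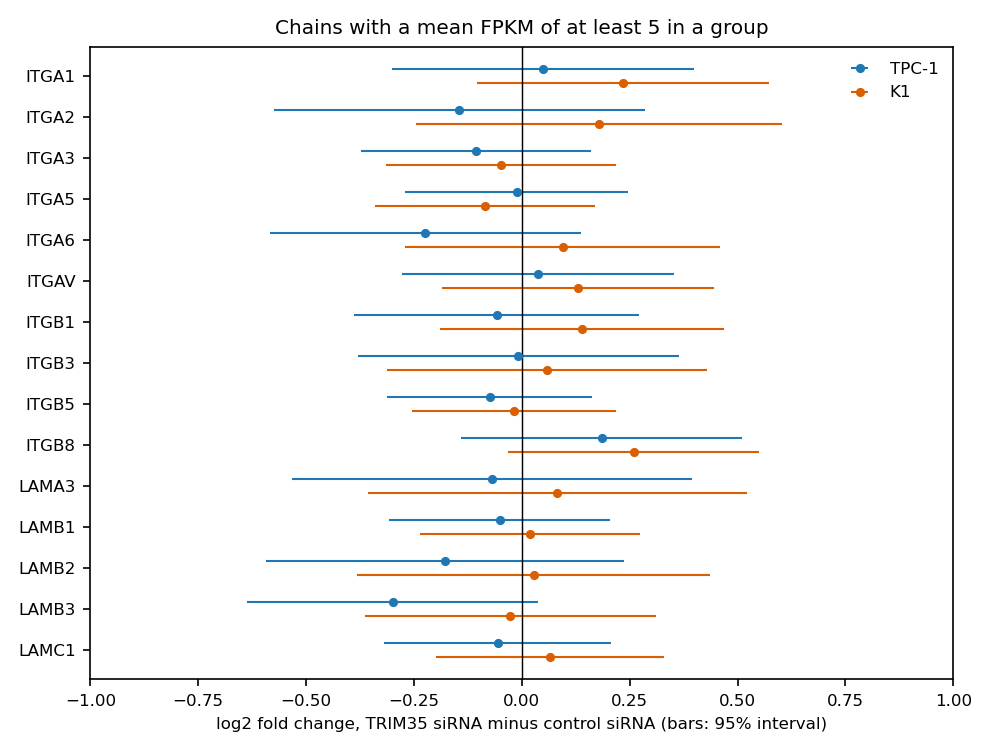
Log2 fold change of TRIM35 siRNA against control siRNA on the horizontal axis for 15 of the 16 chains with a mean of at least 5 FPKM in a group, with 95% intervals, in TPC-1 (blue) and K1 (orange). Every interval includes 0, from LAMB3 in TPC-1 at -0.30 to ITGB8 in K1 at 0.26.

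Single libraries were the lowest or the highest of their line for many chains at once. Among the 16 more abundant chains in K1, the third siRNA library was lowest for 9 and the first control library for 6, while the first siRNA library was highest for 8. In TPC-1 the second siRNA library was lowest for 11 and the third control library highest for 8. These ranks were read on FPKM, which carries no TMM scaling, and the same ranks over all genes were not computed. TMM factors of the libraries named lowest were 0.959 (K1 siRNA 3), 0.993 (K1 control 1) and 0.936 (TPC-1 siRNA 2). Those named highest had 1.078 (K1 siRNA 1) and 0.959 (TPC-1 control 3). The part of library composition in the ranks was not tested. Without the first K1 control and the third K1 siRNA libraries together, an alternative chosen after seeing the data, 23 chains were called between the lines in the control libraries, 23 in the siRNA libraries and 0 in each knockdown comparison.

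The genes around the chains did not follow 1 direction. Of 33 adaptors and signalling partners of integrins, all tested, 8 were higher and 15 lower in K1 control (median log2 -0.31), where 35.8% of all genes tested were higher and 32.1% lower, so the share called was near the 67.9% over all genes. LIMS1, a scaffold of the ILK complex, was higher (13.4 and 43.7 mean FPKM, log2 1.60, SE 0.16, adjusted p = 3.44e-07), as was CD47, a partner of alphaVbeta3 (log2 1.10, SE 0.11, adjusted p = 2.44e-07). ACTN4, an actin crosslinker (83.7 and 30.7 mean FPKM, log2 -1.54, SE 0.13, adjusted p = 6.19e-08), and SLC3A2, the CD98 heavy chain that binds beta1 (log2 -1.29, SE 0.13, adjusted p = 2e-07), were lower.

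Of 18 basement membrane partners and non-integrin laminin receptors, 5 were higher and 9 lower in K1 control (median -0.21), against the same background of 35.8% and 32.1%. NID2 was higher in K1, at 17.2 against 3.05 mean FPKM (log2 2.39, SE 0.20, adjusted p = 4.08e-08) and its paralog NID1 was lower, at 11.98 against 21.1 (log2 -0.91, SE 0.11, adjusted p = 1.96e-06), and both link laminin to collagen IV. COL7A1, the anchoring fibril collagen that binds laminin-332, was higher at 13.4 against 3.29 (log2 1.92, SE 0.26, adjusted p = 1.04e-05), and BCAM, a receptor of LAMA5, was lower at 2.03 against 6.80 (log2 -1.83, SE 0.17, adjusted p = 1.2e-07). Among 6 hemidesmosome partners 4 were tested, and 0 were higher and 3 lower in K1 control (median -1.13), where 32.1% of all genes tested were lower. In the siRNA libraries 4 of the 4 were lower (median -0.94), where 32.4% of all genes were. PLEC, the plectin that anchors alpha6beta4, was lower in the control libraries (log2 -1.18, SE 0.17, adjusted p = 1.46e-05). CD151 was not called in the control libraries (-0.31, SE 0.18, adjusted p = 0.134). That control value passed only without the first K1 control library (-0.49, adjusted p = 0.034) or without that library and the third K1 siRNA library (-0.48, adjusted p = 0.011). In the siRNA libraries CD151 was among the 4 called lower.

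Of 24 integrin ligands other than laminins, 18 were tested, 11 higher and 3 lower in K1 control (median 1.36), against 35.8% and 32.1% over all genes tested. VCAM1, the ligand of alpha4beta1, stood at 0.093 mean FPKM in TPC-1 control and 69.9 in K1 control (log2 9.43, SE 0.23, adjusted p = 2.85e-14), beside the gap in ITGA4. TGFBI, a matrix protein bound by alpha3beta1 and alphaV integrins, stood at 11.1 and 349 mean FPKM (log2 4.88, SE 0.14, adjusted p = 1.53e-13). THBS1 (129.9 and 0.733, log2 -7.57, SE 0.17, adjusted p = 1.94e-14) and SPP1 (9.51 and 0.24, log2 -5.41, SE 0.18, adjusted p = 7.65e-13), ligands of alphaVbeta3, were lower in K1. None of the 4 lists had a gene called in a knockdown comparison.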

How the data were processed

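RNA-seq gene counts and FPKM values of 12 libraries were used. Counts are the deposited whole numbers of the authors, 1 per gene and library. FPKM values were computed by the authors and deposited in the same table; recomputed from the deposited counts and exonic lengths they differed by at most 0.005. Trimming used cutadapt 1.9.1 and coordinates are hg38, per the submitters' processing notes. Aligner, counter, annotation and strand setting: not given in the sources used here. All 12 columns were matched to groups by name.

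Counts were fitted in R 4.3.3 with edgeR 4.0.16 (filterByExpr, TMM, quasi-likelihood test, 1 mean per group over all 12 libraries, 8 residual degrees of freedom), with Benjamini-Hochberg adjustment over 17447 genes and a threshold of 0.05. The script was tested on simulated data. Alternatives used DESeq2 1.42.0, limma 3.58.1 on log2(FPKM + 0.1) and log2(FPKM + 1), other scalings and filters, a replicate block and leaving out each library. Counting intervals are exact at 95% and, like floors of 3 counts, cover counting error only. Promoter windows are RefSeq's (GRCh38.p14), matched by symbol for 26 of 38 genes.

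Full values are given for chains with a mean of at least 5 FPKM in a group, and for the 4 smallest p-values per knockdown; context genes are up to 4 per list with the smallest p in the control comparison among those of at least 5 FPKM. The members and lists were chosen with earlier results of these data known. Values of 1 chain and 2 marker genes are not reported here.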

Additional observations from a re-analysis of the deposited data

How the results depend on the processing

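Chains called between the lines moved from 23 to 15 in the control libraries with limma on log2(FPKM + 0.1) or log2(FPKM + 1), where 20 chains were tested in place of 30. Leaving out 1 library gave 19 to 23 chains in the control libraries, 21 to 23 in the siRNA libraries and 0 in each knockdown comparison. Genes called with the siRNA were 2 in TPC-1 and 2 in K1 with no filter on low counts and 4 for the difference of effects; DESeq2 called 2 in TPC-1 and 2 for the difference, and leaving out 1 library gave 0 to 1 for the difference. The cause was not tested. Values that reversed were those of chains not called: ITGA10 in the control libraries without 1 library (-0.649 to 0.596), ITGB1 in the siRNA libraries with library totals (0.0473), limma with the smaller (0.0547) and the larger (0.0542) pseudocount, or without 1 library (-0.158 to 0.064), and LAMB3 in the siRNA libraries without 1 library (-0.0842 to 0.249).

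Pairing by number was read from deviations, the log2 level of each gene in a library minus the mean of its group. Whole profiles were not correlated, so low or negative values do not mean that profiles were unlike. Deviations of same-numbered control and siRNA libraries correlated at 0.379, 0.086 and 0.406 in TPC-1, against -0.413 to 0.059 for different numbers. In K1 these correlations were -0.491, 0.086 and -0.526, against -0.358 to 0.577 for different numbers. In TPC-1 each library correlated best with its own number, a hint from the data and not the design. Not every pair was over 0.1, so the numbers were not taken to pair the samples. With the replicate block 23 and 22 chains were called between the lines and 0 in each knockdown comparison. Library totals shifted the median of all genes by at most 0.097 on the log2 scale. Counted per gene and alternative, a call was lost 17 times, all for ITGA2, ITGB3, ITGB6 or LAMB2. A call was gained 5 times, for ITGB2, CD151 or LAMA2, and each case is given with its gene in the text. The 8 chains that failed the filter had at most 12 counts in any library, which limits what this depth can show of them.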
